A study of Oryza sativa Japonica Group with 12 samples.

Results

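Type-A response regulators are small proteins of the cytokinin pathway in plants. The genes described here are those that the gene table names RR1 to RR10 in rice (Oryza sativa, Japonica group). They were chosen by gene name, and 8 of the 10 names stood in the gene table. Of these 8 genes, 6 had a probe set with 1 gene on the array, which holds 57381 probe sets naming 17905 genes: RR1 (LOC4335937), RR2 (LOC4329677), RR4 (LOC4325747), RR5 (LOC4336439), RR6 (LOC4337372) and RR9 (LOC4349747). RR7 (LOC107276271) and RR10 (LOC4351462) had none in the annotation used and were not analysed here. The family, and RR1 by name, had also been selected on earlier results of these same 12 arrays. RR1 is therefore described without a test in every comparison, and the tests of the other members are not independent of that earlier view.

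Cytokinin is a plant hormone that keeps cells dividing and delays the ageing of leaves. Receptor kinases in the membrane pass a phosphate through phosphotransfer proteins to response regulators. Type-B regulators bind DNA and switch genes on, among them the type-A genes, whose products damp the signal in a negative feedback. Type-A transcripts are for that reason often read as a measure of cytokinin response, and the arrays measured the transcripts alone, not the hormone.

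The study set leaves of plants that over-express the microRNA miR156 (OE) against wild-type leaves (WT). MiR156 marks the juvenile phase and silences SPL transcription factor genes. The OE plants were 3 independent transgenic lines selected on hygromycin (Md15, Md43 and Mh9, as replicates 1 to 3), and the WT plants were 3 in number. The promoter of the transgene is not given in the sources used here, and no transgenic control without extra miR156 was part of the design, so over-expression, transformation and hygromycin selection cannot be told apart. From each plant at 45 days, the young leaf 6 (L6) and the old leaf 3 (L3) of the main tiller were hybridised, which gave 4 groups of 3 arrays: OE_L6, WT_L6, OE_L3 and WT_L3. Leaf age and leaf position change together between L6 and L3.

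Levels are linear signals with no absolute scale, so they were compared between arrays and never between genes. Differences and folds are of log2(signal + 16), so changes of dim probe sets come out too small, and errors of differences are standard errors (SE) of 1 limma model over the 12 arrays. A probe set passed a comparison when its p, adjusted by the Benjamini-Hochberg method over all 34316 probe sets tested, was under 0.05. The number of arrays limits the precision.

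The arrays of old leaves were less alike than those of young leaves. A leaf-age score, 0 at the mean L3 and 1 at the mean L6 of the other genotype, ran from 0.878 to 1.02 in OE_L6 and from 0.915 to 1.11 in WT_L6. It was 0.254, 0.211 and -0.223 in OE_L3 replicates 1 to 3, and 0.382, -0.286 and -0.266 in WT_L3 replicates 1 to 3. WT_L3 replicate 1 thus lay nearest to the young leaves. OE_L6 replicate 1 stood apart in a control, with a log2 ratio of 3′ to 5′ signal for Dap of 4.37, against 2.92 to 3.43 on the other 11 arrays. Some member values are also given without 1 of these arrays. Of 11 photosynthetic marker probe sets, 10 passed the filter, and the other, of RBCS, read at most 56.2. The defining meristem gene OSH1 read at most 25.2.

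RR1 was several times higher in young leaves than in old leaves of both genotypes. Replicates 1 to 3 read 468, 712 and 506 in OE_L6, against 98.0, 127 and 78.2 in OE_L3. In wild type they read 558, 701 and 841 in WT_L6, against 188, 55.2 and 59.1 in WT_L3. The leaf groups did not overlap in either genotype. The log2 difference between leaves was 2.3 (SE 0.37, a 4.93-fold difference) in OE and 2.78 (SE 0.37, 6.87-fold) in WT. RR1 is known in rice to bind the flowering regulator Ehd1. In tissue samples such as these, fewer cells of a type and less RNA per cell cannot be told apart.

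**Figure D1:**
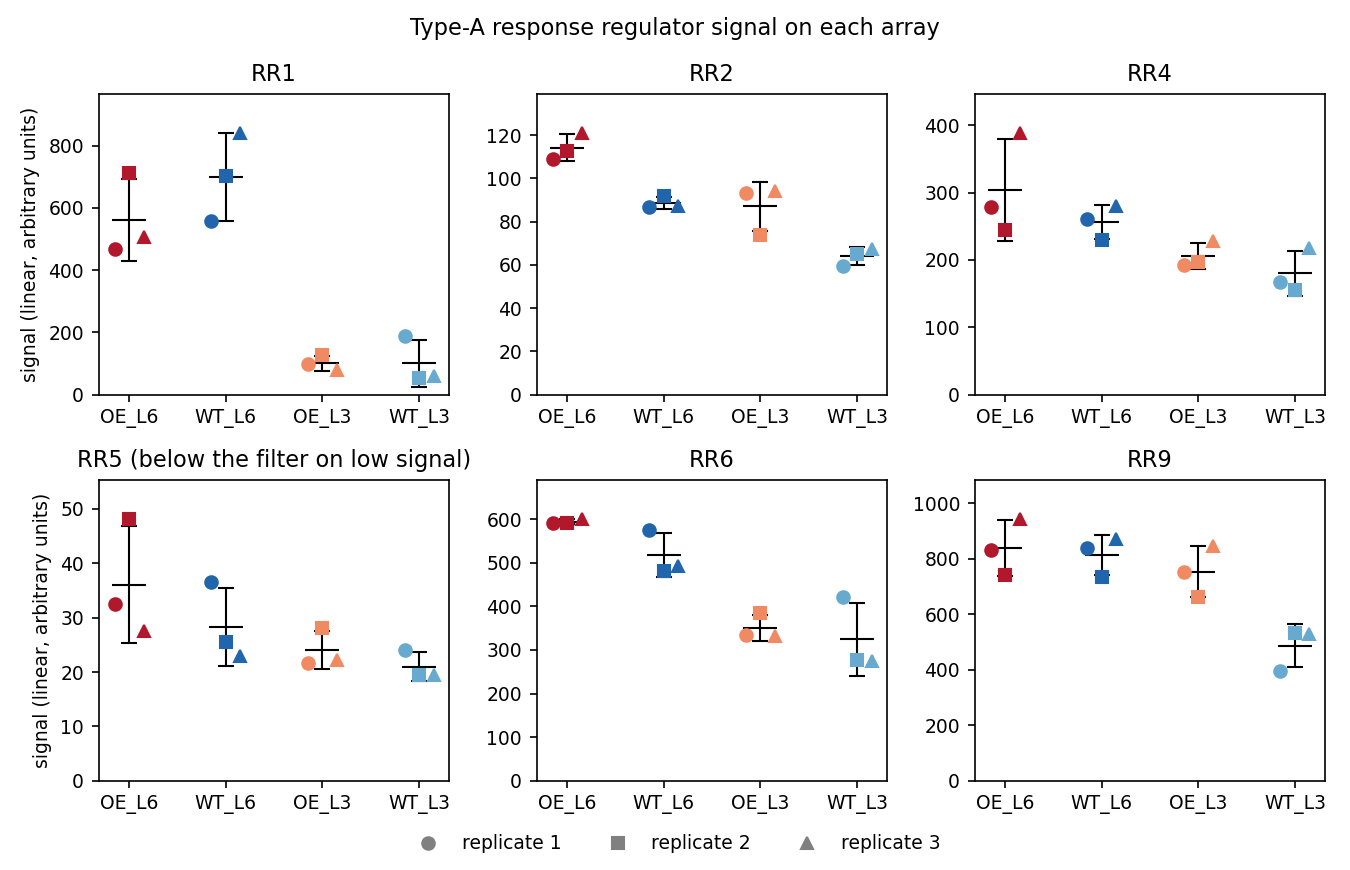
Signal of each type-A response regulator probe set (linear, y axis from 0) by group, with 1 symbol per array and black bars for the mean ± SD of 3 arrays. RR1 read 468 to 841 on the 6 young-leaf arrays and 55.2 to 188 on the 6 old-leaf arrays, while RR9 was low in WT_L3 alone among the 4 groups, at 398 to 535.

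Within the plants, the leaf difference of RR1 was positive in 6 of 6. It was 2.09, 2.35 and 2.47 on the log2 scale in the OE lines and 1.49, 3.33 and 3.51 in the WT plants. The wild-type plants thus enclosed all OE lines, but through WT plant 1 alone, as the others lay above every OE line. The smallest value belonged to WT plant 1, whose old leaf read 188, the array with the leaf-age score nearest to young leaves. Without OE_L6 replicate 1 the OE leaf difference was 2.42. Without WT_L3 replicate 1 the WT leaf difference was 3.27, and its difference from OE (OE minus WT) moved to -0.97, against -0.48 (SE 0.52) with it.

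**Figure D2:**
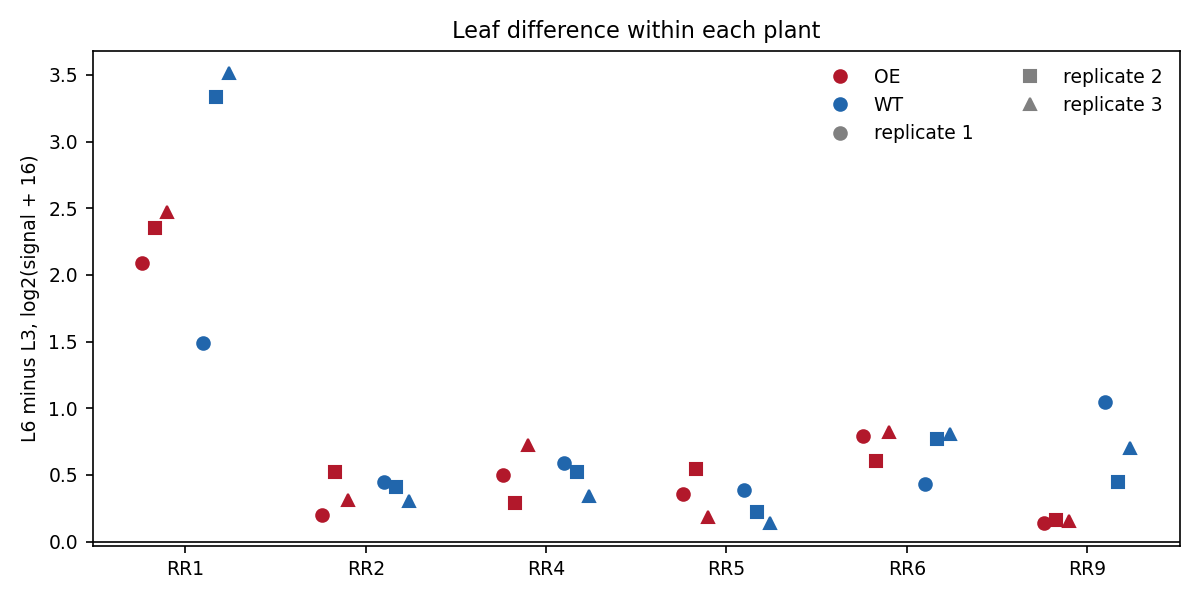
Leaf difference within each plant, L6 minus L3 in log2(signal + 16), for the 6 genes (x axis), with OE lines left of WT plants and 1 symbol per plant. All 36 values were above 0, and RR9 ran from 0.14 to 0.16 in OE, against 0.45 to 1.05 in WT.

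The old-leaf arrays with more RR1 also held more signal of genes of dividing cells. The list of 15 such genes (cyclins A and B, MCM genes, PCNA and CDKB2-1) had a summed signal over 16 probe sets of 2628, 3119 and 922 in OE_L3 replicates 1 to 3, and of 4402, 960.0 and 959 in WT_L3 replicates 1 to 3. Young leaves held 5173 to 6855 in OE_L6 and 3508 to 6977 in WT_L6. Among old leaves, the array highest in the sum was highest in RR1, and the 3 arrays with the lowest sums were the 3 lowest in RR1. The arrays high in both, OE_L3 replicates 1 and 2 and WT_L3 replicate 1, also had the highest leaf-age scores of the old leaves (0.254, 0.211 and 0.382). Whether the link is particular to genes of dividing cells was not tested. Among young leaves, WT_L6 replicate 3 was highest in RR1, at 841, and lowest in the sum. In the L6 against L3 comparisons 2 of the 15 tested probe sets of this list rose in OE, where 18.9% of all probe sets were called higher, and 9 rose in WT, where 23.9% were. None was lower, no probe set was at 0 on any array, and the median log2 difference was 1.66 in OE and 1.80 in WT. Without WT_L3 replicate 1, 14 of 15 rose in each genotype (23.7% of all probe sets in OE and 28.6% in WT), with a WT median of 2.56. Without OE_L6 replicate 1, 0 passed in limma in OE (4 had an unadjusted p under 0.05), where 12.9% of all probe sets were called higher. In WT 5 then rose, where 22.6% of all did. Without both arrays 11 rose in OE (20.3% of all probe sets) and 14 in WT (28.4%). The part of dividing cells in the RR1 difference was not tested.

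**Figure D3:**
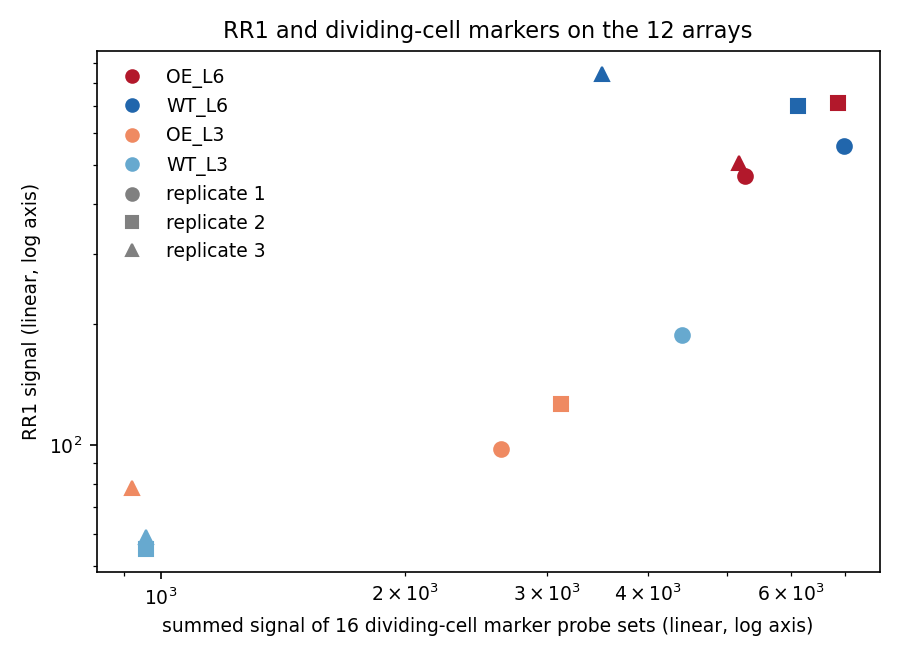
RR1 signal (y axis, log scale) against the summed signal of 16 probe sets of dividing-cell marker genes (x axis, log scale) on the 12 arrays, coloured by group with 1 symbol per replicate. The 6 old-leaf arrays lie lower, from 55.2 to 188 in RR1, and WT_L3 replicate 1 has both the highest sum (4402) and the highest RR1 among them. That array also had the highest leaf-age score of the old leaves (0.382).

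With miR156 over-expression, the genotypes overlapped in RR1 in both leaves, in L3 through WT_L3 replicate 1 alone. In young leaves RR1 had mean signals of 562 ± 131 in OE_L6 and 700.0 ± 142 in WT_L6 (SD, n = 3 each), a log2 difference of -0.31 (SE 0.37). In old leaves the means were 101 ± 24.5 in OE_L3 and 101 ± 75.5 in WT_L3, a log2 difference of 0.17 (SE 0.37). Without WT_L3 replicate 1 the old-leaf difference was 0.66, and the other WT_L3 arrays (55.2 and 59.1) lay below every OE_L3 array (78.2 to 127). In order of level the groups stood as WT_L6, OE_L6 and then the 2 old-leaf groups. With all arrays, both log2 differences between the genotypes were smaller than their SE.

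Among the other members, RR2, RR4 and RR6 rose in L6 in both genotypes, and RR9 rose in L6 of wild type. That made 3 of 4 tested members higher in OE_L6 than in OE_L3, where 18.9% of all probe sets were called higher, and 4 of 4 higher in WT_L6 than in WT_L3, where 23.9% were. With the plant as a random block the counts were 2 in OE and 3 in WT, since RR4 was lost in both. The share of all probe sets called in that fit is not given, so these counts have no background beside them. No tested member was called lower between the leaves. The median log2 difference of the 4 was 0.43 in OE and 0.58 in WT, against 0.00 in OE and 0.02 in WT over all probe sets tested. All 4 rises in WT and all 3 in OE were under 2-fold.

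RR6, which damps cytokinin signalling when over-expressed in rice, read 591, 592 and 600.5 in OE_L6, against 335, 384 and 332 in OE_L3. Its WT values were 575, 482 and 493 in WT_L6, against 422, 276 and 275 in WT_L3. Every young leaf was above every old leaf, and the highest old leaf was again WT_L3 replicate 1. The log2 difference between leaves was 0.74 (SE 0.15, limma adjusted p = 0.00396) in OE and 0.67 (SE 0.15, limma adjusted p = 0.00556) in WT. Without WT_L3 replicate 1 the WT difference was 0.86.

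RR2, a gene that the root regulator WOX11 represses in crown root growth of rice, also rose in both genotypes. It read 109, 113 and 121 in OE_L6, against 93.0, 73.8 and 94.2 in OE_L3. In wild type it read 86.9, 91.9 and 87.2 in WT_L6, against 59.4, 65.1 and 67.5 in WT_L3. The leaf groups did not overlap in either genotype, and the log2 differences were 0.34 in OE (SE 0.09, limma adjusted p = 0.0121) and 0.39 in WT (SE 0.09, limma adjusted p = 0.00588). OE_L3 and WT_L6 lay at similar values, 87.0 ± 11.4 in OE_L3 and 88.6 ± 2.80 in WT_L6 (SD, n = 3 each).

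RR4, read by an _s_at probe set that may also bind related transcripts, was at 279, 244 and 389 in OE_L6, against 192, 197 and 228 in OE_L3. In wild type it was at 261, 229.7 and 279.6 in WT_L6, against 168, 155 and 218 in WT_L3. Its log2 differences of 0.51 in OE (SE 0.17, limma adjusted p = 0.0372) and 0.49 in WT (SE 0.17, limma adjusted p = 0.0390) lay close to the threshold. Both calls were lost with quantile normalization (limma adjusted p 0.0621 in OE and 0.0882 in WT) and with the plant as a random block (limma adjusted p 0.0520 in OE and 0.0542 in WT). In OE the call was also lost with the compared groups alone (limma adjusted p 0.0623), in WT with no filter (limma adjusted p 0.0503) and with array weights (limma adjusted p 0.125). Without both WT_L3 replicate 1 and OE_L6 replicate 1 the limma adjusted p was 0.0569 in OE and 0.0967 in WT. Leaving out 1 array gave limma adjusted p of 0.0249 to 0.120 in OE and 0.0184 to 0.136 in WT. The arrays whose omission ended the call were OE_L3 replicates 1, 2 and 3 and OE_L6 replicates 1 and 3 in OE. In WT they were OE_L3 replicate 2, WT_L3 replicates 1 and 2 and every WT_L6 replicate.

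RR9, which with its near copy RR10 restrains cytokinin signalling and salt tolerance in rice, had a leaf difference that passed in WT and not in OE. It read 831, 742 and 944 in OE_L6, against 753, 662 and 846 in OE_L3. In wild type it read 838, 735 and 873 in WT_L6, against 398, 535 and 530.3 in WT_L3. All WT_L3 arrays were below all other arrays, and the OE leaf groups overlapped. Whether the RR9 probe set also reads RR10 was not tested.

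The log2 leaf difference of RR9 was 0.15 in OE (SE 0.14, limma adjusted p = 0.406) and 0.73 in WT (SE 0.14, limma adjusted p = 0.00284). The difference between these differences was -0.58 (SE 0.20), with an unadjusted limma p of 0.0159 and an adjusted p of 1.00, so it did not pass over all probe sets. With 1 array left out it ran from -0.67 to -0.44, and without both WT_L3 replicate 1 and OE_L6 replicate 1 it was -0.44 (limma adjusted p = 0.863). Array weights gave -0.23 (limma adjusted p = 0.356). Without WT_L3 replicate 1 the RR9 leaf difference in WT was 0.60. Among WT_L3 arrays, replicate 1 was the lowest for RR9 and RR2 and the highest for RR1, RR5 and RR6.

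RR5 did not pass the filter at the 40th percentile, with its mean at the 25.4th percentile of all probe sets. It read 32.4, 48.1 and 27.6 in OE_L6, against 21.7, 28.0 and 22.3 in OE_L3. The WT values were 36.5, 25.5 and 22.9 in WT_L6, against 24.1, 19.5 and 19.4 in WT_L3. The groups overlapped in both genotypes. Fitted with no filter, its log2 leaf differences of 0.36 in OE (limma adjusted p = 0.0859) and 0.25 in WT (limma adjusted p = 0.222) did not pass.

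No tested member passed in a comparison of the genotypes, and all of their differences were above 0. In L6, 0 of 4 passed in limma, where 0.102% of all probe sets did, and 1 had an unadjusted p under 0.05, as did 7.72% of all. In L3, 0 of 4 passed in limma, where 0.119% of all did, and 2 had an unadjusted p under 0.05, as did 3.86% of all. The median log2 difference was 0.20 in L6 and 0.27 in L3, against -0.02 in L6 and 0.01 in L3 over all probe sets. These comparisons of L6 and L3 share no array, although each plant gave 1 array to each.

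With all arrays, RR2 was the only tested member whose genotypes did not overlap in either leaf. All OE arrays were above all WT arrays of the same leaf, with log2 differences of 0.31 in L6 (SE 0.09, limma adjusted p = 0.485) and 0.36 in L3 (SE 0.09, limma adjusted p = 0.468). RR9 in L3 was likewise higher on every OE array, at 662 to 846 in OE_L3 and 398 to 535 in WT_L3 (log2 0.62, SE 0.14, limma adjusted p = 0.384), and in L6 its difference was 0.04 (SE 0.14). Without WT_L3 replicate 1 the L3 difference of RR9 was 0.48. RR6 in L6 read 591 to 600.5 in OE_L6 and 482 to 575 in WT_L6, also without overlap (log2 0.20, SE 0.15, limma adjusted p = 0.766). In L3 RR6 overlapped through WT_L3 replicate 1 alone, at 422. The other WT_L3 arrays (276 and 275) lay below every OE_L3 array (332 to 384). The L3 difference of RR6 was 0.13 (SE 0.15), and 0.33 without WT_L3 replicate 1. With all arrays, every OE array was thus higher in 2 of 4 members in L6, against 5.92% of all probe sets. In L3 it was 2 of 4 as well, against 4.47%. RR4 overlapped in both leaves, with log2 differences of 0.21 in L6 and 0.19 in L3 (SE 0.17 each). With 1 array left out these ran from 0.03 (without OE_L6 replicate 3) to 0.34 (without OE_L6 replicate 2) in L6, and from 0.09 (without WT_L3 replicate 2) to 0.32 (without WT_L3 replicate 3) in L3.

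**Figure D4:**
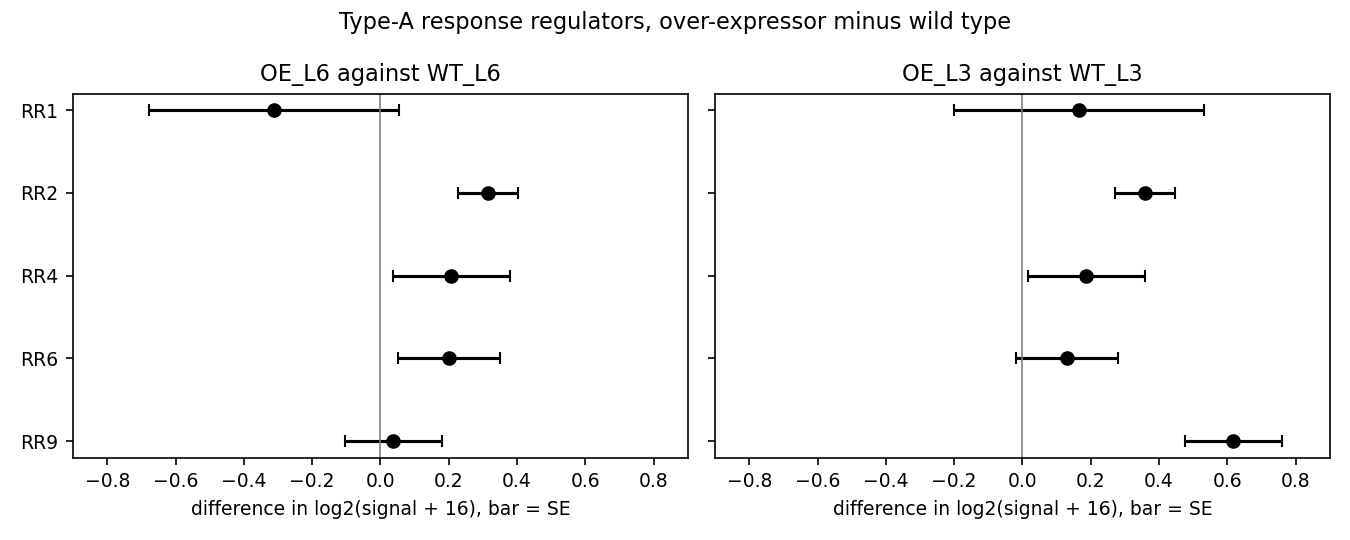
Difference between OE and WT in log2(signal + 16) for the 5 members that passed the filter, with L6 on the left and L3 on the right, points for the limma estimate and bars for its SE. RR2 lies at 0.31 in L6 and 0.36 in L3, RR9 at 0.04 and 0.62, and RR1 at -0.31 and 0.17 with the widest bars.

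For the leaf comparisons, the same count of groups without overlap was 3 of 4 in OE, where 29.8% of all probe sets had every L6 array higher, and 4 of 4 in WT, where 26.3% had. No tested member passed the test of whether the leaf difference changed with genotype (0 of 4 in limma, against 0.00874% of all probe sets). Of the 4, RR9 alone had an unadjusted p under 0.05 there, as did 2.46% of all. The other 3 had differences of -0.05 (RR2), 0.02 (RR4) and 0.07 (RR6).

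The genes whose pattern over the 12 arrays was most like that of RR1 were named by Pearson correlation of log2(signal + 16), among 2170 genes with a name. They were IRX9L (r = 0.995), a homolog of a xylan glycosyltransferase, ILL8 (r = 0.992), of the family of auxin conjugate hydrolases, and PSY2 (r = 0.990), a phytoene synthase of carotenoid formation. The 4-coumarate ligase gene 4CL.2 (r = 0.988) and the kinase gene NEK4 (r = 0.987) followed. IRX9L, on an _x_at probe set, was at 681 ± 35.9 in OE_L6 and 397 ± 33.7 in OE_L3, and at 760 ± 52.6 in WT_L6 and 372 ± 92.1 in WT_L3. The points share their leaf groups, and 14.9% of the 2170 genes had an r above 0.9, so a high r was common. Of these 5 genes, 1 remained among the 5 most alike by Spearman correlation, and 1 when deviations from the group means were compared.

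Upstream of the type-A genes, most tested type-B activators went the other way between the leaves. Of 4 tested, 3 fell in L6 in OE (23.2% of all probe sets fell) and 3 fell in WT (23.9%), and none rose. RR23 read 236, 247 and 223 in OE_L6, against 547, 470.5 and 555 in OE_L3, and 209.7, 233 and 257 in WT_L6, against 438, 486 and 499 in WT_L3. No young leaf reached an old leaf, and its log2 differences were -1.10 in OE (SE 0.10, limma adjusted p = 5.54e-05) and -0.98 in WT (SE 0.10, limma adjusted p = 9.46e-05). RR24 had -1.29 in OE and -1.32 in WT (SE 0.21 each), and RR21 had -0.26 in OE and -0.28 in WT (SE 0.09 each). RR22 was at -0.08 in OE without passing, and its estimate in WT was close to 0 (limma adjusted p = 0.994), and RR33 was below the filter.

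**Figure D5:**
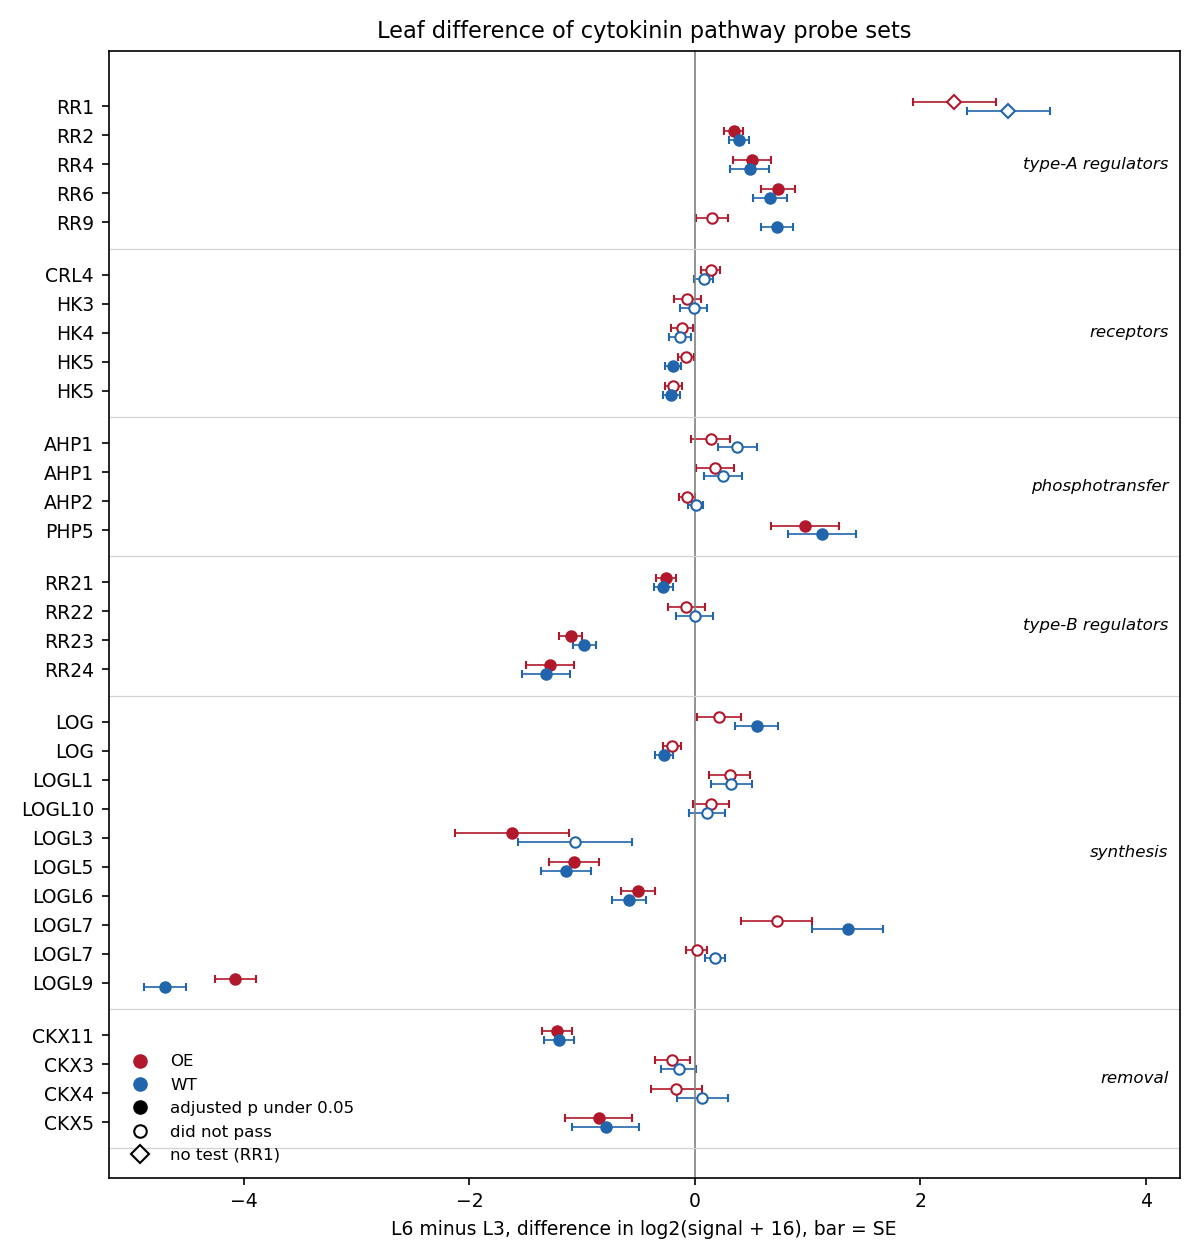
Leaf difference, L6 minus L3 in log2(signal + 16), of each tested cytokinin pathway probe set (rows, grouped by role), with OE above WT, bars for the SE and filled symbols for an adjusted p under 0.05. The type-A genes lie right of 0, from 0.15 to 2.78. The type-B genes lie left of it, to -1.32, with RR22 close to 0, and LOGL9 lies at -4.07 in OE and -4.70 in WT.

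Of the receptors, HK5 passed in wild type and not in OE, and of the phosphotransfer genes, PHP5 passed in both genotypes. Of 5 receptor probe sets of 4 genes, none passed in OE, and the 2 of HK5 fell in WT, where 23.9% of all probe sets fell (log2 -0.19, SE 0.07, limma adjusted p = 0.0478, and -0.21, SE 0.08, limma adjusted p = 0.0459). In OE the same 2 probe sets had -0.08 (limma adjusted p = 0.386) and -0.19 (limma adjusted p = 0.0663). Their leaf differences changed with genotype by 0.11 and 0.02, without passing. HK3, HK4 and the receptor-like kinase CRL4 had leaf differences of -0.13 to 0.14 in the 2 genotypes. Of 4 phosphotransfer probe sets of 3 genes, 1 rose in each genotype, against 18.9% of all probe sets in OE and 23.9% in WT. It belonged to PHP5, from a class of pseudo-phosphotransfer proteins, which was at 210.0 ± 13.4 in OE_L6 and 101 ± 26.9 in OE_L3, and at 209 ± 31.5 in WT_L6 and 95.6 ± 60.3 in WT_L3 (SD, n = 3 each). Its WT_L3 values of 165, 61.6 and 59.96 were again highest in replicate 1. Its log2 difference was 0.98 in OE (limma adjusted p = 0.0273) and 1.13 in WT (limma adjusted p = 0.0132). In WT it was 1.54 without WT_L3 replicate 1, and in OE the call was lost without OE_L6 replicate 1 (log2 0.96, limma adjusted p = 0.0646).

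Genes that make active cytokinin were called only lower in L6 of OE, and in both directions in WT. LOG and LOG-like (LOGL) enzymes release the active hormone from its precursors, and 10 of their probe sets were tested, for 8 genes. In OE 4 fell and none rose, where 23.2% of all probe sets fell and 18.9% rose. In WT 4 fell and 2 rose, where 23.9% of all fell and 23.9% rose. LOGL9 had the widest leaf difference of the lists, at 24.0, 29.0 and 28.5 in OE_L6, against 658, 665 and 819.5 in OE_L3, and at 33.4, 21.4 and 24.8 in WT_L6, against 818, 1428 and 1091 in WT_L3. Its log2 differences were -4.07 in OE (SE 0.19, limma adjusted p = 1.32e-06) and -4.70 in WT (SE 0.19, limma adjusted p = 4.64e-07), with young-leaf signals so dim that the sizes depend on the pseudocount. LOGL5 fell in both genotypes (log2 -1.07 in OE and -1.14 in WT). LOGL3 passed in OE (-1.62) and not in WT (-1.06). LOGL7 rose in WT on 1 of its 2 probe sets (1.35, limma adjusted p = 0.00672) and had 0.73 in OE without passing. The 2 probe sets of LOG disagreed in WT, with 0.55 on one and -0.27 on the other, both past the threshold.

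Genes that remove cytokinin were lower in young leaves where they passed. Cytokinin oxidases (CKX) break the hormone down, and 4 of their 6 probe sets passed the filter. Of these 4, 2 fell in L6 of each genotype, where 23.2% of all probe sets fell in OE and 23.9% in WT. CKX11 fell in both genotypes, at 120.3 ± 22.4 in OE_L6 and 300.2 ± 33.4 in OE_L3 (log2 -1.22, SE 0.13, limma adjusted p = 0.000169), and at 106 ± 8.20 in WT_L6 and 267 ± 26.8 in WT_L3 (log2 -1.21, SE 0.13, limma adjusted p = 0.000156). CKX5 fell as well, by 0.85 in OE (limma adjusted p = 0.0411) and by 0.79 in WT (limma adjusted p = 0.0488), and its leaf groups overlapped in OE. CKX3 and CKX4 did not pass.

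In all, of 27 tested probe sets in these 5 lists, 1 rose and 9 fell in L6 of OE, and 3 rose and 11 fell in L6 of WT. Of all probe sets, 18.9% rose and 23.2% fell in OE, and 23.9% rose and 23.9% fell in WT. The median log2 difference was -0.11 in OE and -0.13 in WT. The number called was 10 in OE, and 5 without OE_L3 replicate 3 or 6 without OE_L6 replicate 2. It was 14 in WT, and 7 without WT_L3 replicate 2, 8 without WT_L3 replicate 3 and 8 without WT_L6 replicate 2. Leaving out an array also moved the share over all probe sets. In OE 18.9% were called higher, against 12.9% without OE_L6 replicate 1 and 23.7% without WT_L3 replicate 1. For the arrays left out here that share is not given, so these lower counts cannot be set against it. With miR156 over-expression 0 of the 27 passed in limma in either leaf, with 1 at an unadjusted p under 0.05 in L6 (7.72% of all probe sets) and 2 in L3 (3.86%). In the test of a change of the leaf difference with genotype 0 of 27 passed in limma, and 1 had an unadjusted p under 0.05 (2.46% of all).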

How the data were processed

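Labelled RNA was read on 12 Affymetrix rice arrays. The authors deposited, for every probe set on each array, a linear signal intensity, without saying in the labels how it was summarized or scaled. The highest and lowest array medians lay 0.153 apart on the log2 scale, and no further normalization was applied.

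Signals were taken as log2(signal + 16). After removal of 187 array controls, a probe set was kept if its mean log2 value reached the 40th percentile, and 34316 were. In R 4.3.3, limma 3.58.1 (lmFit, and eBayes with a trend) was fitted across all of these with 4 groups of 3 arrays and 8 residual degrees of freedom, with two-sided tests. The fit was tested on simulated data. Figures were drawn with matplotlib 3.10.9.

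The platform annotation pairs 22436 probe sets with 1 gene and 95 with several, and does not list 34850. Genes were named by symbols or synonyms of the gene table of assembly ASM3414082v1, which holds most names as synonyms, so a synonym also counted as a name. The members, the cytokinin lists and the marker lists were chosen with earlier results of these data known. All members were named, with up to 3 called probe sets per cytokinin list and comparison and the 5 genes most like RR1. The names ORR1 to ORR5 belong to type-B genes in this table and are no members. Synthesis genes of the IPT family, RR11 and RR13 were not analysed here, and neither were promoter or protein sequences.

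The summed signals of the other marker lists were as follows. The leaf list (4 genes) had 46831 to 54070 in OE_L6, 48121 to 51645 in WT_L6, 42113 to 49465 in OE_L3 and 43706 to 47771 in WT_L3. Of its 10 tested probe sets, 7 rose in L6 and 1, of CAB2R, fell in each genotype. Over all probe sets 18.9% rose and 23.2% fell in OE, and 23.9% rose and 23.9% fell in WT, also for the lists that follow. The meristem list (8 genes) had 4564 to 5787, 4717 to 5957, 7726 to 8323 and 7137 to 8405 in the same order. HOS58, HOS59 and OSH45 made up most of this sum and OSH1 read at most 25.2, so the sum does not measure meristem. Of its 5 tested probe sets, 1 rose and 2 fell in L6 of OE, and 1 rose and 3 fell in WT. The one that rose was of OSH43 (log2 0.43 in OE and 0.53 in WT). The old-leaf list (5 genes) had 4332 to 5871, 4813 to 5592, 6362 to 6720 and 6403 to 7035. Its members went different ways. Of 7 tested probe sets, 0 rose and 3 fell in L6 of OE, and 1 rose and 3 fell in WT. Those that fell were of SGR and RCCR1, the one that rose was of NOL, and NYC1 and GLN1-1 did not pass. The root list (3 genes) had 124 to 166, 124 to 141, 210 to 218 and 224 to 428.

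The labels give L6 and L3 arrays of 1 number the same line or plant, so the numbers pair them. Deviations of the 2 leaves of a plant from their group means correlated at 0.10, 0.14 and 0.20 in OE and at -0.24, -0.36 and -0.05 in WT. Between OE and WT the samples share only a number. Replicates are separate plants or lines per the labels.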

Additional observations from a re-analysis of the deposited data

How the results depend on the processing

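The alternatives changed the normalization (quantile), the pseudocount (1 or 64), the filter (none, or the 60th percentile), the trend, the replicate block (3 forms), the arrays in the fit, the probe sets per gene, the minimum fold and the array weights. Leaving out both WT_L3 replicate 1 and OE_L6 replicate 1 was chosen after seeing the data, as were the values of PHP5 and the dividing-cell list without these arrays. A 2-fold minimum left 0 type-A probe sets in each leaf comparison and 6 of the other cytokinin probe sets in each. Array weights called 1 other cytokinin probe set in OE_L3 against WT_L3. With 1 array left out, the type-A count was 2 to 3 in OE and 3 to 4 in WT between leaves, and the other cytokinin count was 5 to 11 in OE and 7 to 14 in WT. For most of these settings the share of all probe sets called is not given, so the counts have no background beside them. Small differences turned sign in places, none of them past the threshold, and the cause was not tested. The change of the leaf difference with genotype was 0.0703 for RR2 and -0.0834 for RR6 with array weights, and 0.0268 for RR2 and -0.121 for RR6 without both arrays named above. With 1 array left out it was -0.16 to 0.16 for RR4, -0.14 to 0.00687 for RR2 and -0.13 to 0.17 for RR6, and OE_L6 against WT_L6 for RR9 was -0.0493 to 0.121. RR1 in OE_L3 against WT_L3 was -0.10 to 0.66 with 1 array left out and 0.72 with array weights.

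With the plant as a fixed replicate block, 3 type-A probe sets passed between the leaves of OE and 4 between those of WT, as without it, and 8 and 10 of the other cytokinin probe sets did. With the plant as a random replicate block, 2 and 3 type-A probe sets passed, RR4 being lost in both. With the replicate number as a block the type-A counts were 3 and 4. The share of all probe sets called in the block fits is not given here. Between OE and WT, same-numbered arrays correlated at 0.20, 0.50 and -0.10 in L6 and at 0.73, -0.72 and 0.80 in L3. The block changed no other call of a member. Dim probe sets limit RR5 and the young-leaf level of LOGL9.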
